A study of Homo sapiens with 6 samples.

Results

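Siglecs are cell surface receptors that bind sialic acids, the sugars that cap many glycoproteins and glycolipids. The 8 Siglec genes described here are SIGLEC6, SIGLEC7, SIGLEC9, SIGLEC10, SIGLEC12, SIGLEC14, CD33 and CD22, out of 43424 gene symbols in the count files. They were chosen by name, with their values in these libraries already known, so their own differences are given as a description and without a test. CD33 is also called Siglec-3 and CD22 is also called Siglec-2.

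HL-60, a human acute myeloid leukaemia line of wild-type label, was kept for 6 months with DMSO or with CIP, the submitters' abbreviation for the plant Corydalis incisa (Thunb.) Pers., which was raised from 2 to 20 µg/ml. The study's stated purpose was to look for genes with a role in the differentiation that CIP induces, using cells made resistant to it. Both groups shared the same medium with fetal bovine serum and antibiotics, and each had 3 libraries of total RNA read by QuantSeq, a method that sequences the 3' end of polyadenylated transcripts. The labels do not say that replicates were separate cultures, so the spread between them may be technical, and cells of the line from before the exposure were not analysed here.

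Library totals ran from 8143657 to 10868396 counts. The groups differed across the transcriptome: edgeR's quasi-likelihood test, with a Benjamini-Hochberg adjusted p under 0.05, called 73.1% of 12844 tested genes, 34.9% higher and 38.2% lower with CIP. Of these calls 52.3% were lower with CIP, against 63.2% when libraries were scaled by their totals alone, which moved the median over all tested genes from -0.03 to -0.26 on the log2 scale. MPO, the myeloperoxidase for which HL-60 is known, had 77887 to 84917 counts in the CIP-labelled libraries and 9 to 15 in those labelled DMSO. MYC, which is amplified in HL-60, was also higher in the CIP-labelled libraries (log2 fold change 2.74 ± 0.13 SE, edgeR adjusted p = 1.73e-10). The list of 5 HL-60 markers was mixed, with 3 higher and 2 lower with CIP: the granule protein genes ELANE and AZU1 were lower, by log2 fold changes of -0.83 ± 0.07 and -0.80 ± 0.13. The DMSO-labelled libraries thus held next to none of a defining transcript of the line, and the groups are named by label throughout. Whether the labels match the cultures was not tested, and exchanged labels would turn every direction given here.

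Most Siglecs carry an outer domain that binds sialic acid and, inside the cell, tyrosine motifs called ITIMs. When these motifs are phosphorylated by SRC family kinases they recruit the phosphatases SHP-1 and SHP-2, which dampen signals from activating receptors. A few Siglecs lack ITIMs and instead pair with the activating adaptor DAP12, encoded by TYROBP. In blood each Siglec has its own cell range, with CD33 on myeloid precursors and on most acute myeloid leukaemias, where antibodies to it are used as drugs, and CD22 on B cells.

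All members except CD22 lie in a cluster on chromosome 19 that runs over 527 kb, from 51119778 to 51646825 (RefSeq, GRCh38.p14). Its genes are known to have arisen by duplication. The first stretches are shown because their genes had very different levels with DMSO. SIGLEC7 and SIGLEC12 were read in every DMSO library, while SIGLEC9 was read in none of them. They are the bases just before the RefSeq start of SIGLEC7 (chr19:51142209-51142300, plus strand) and the stretches that align with them. Those stretches lie before a transcript start of SIGLEC9 (chr19:51124814-51124905, plus strand), SIGLEC12 (chr19:51501806-51501891, minus strand) and the eosinophil receptor gene SIGLEC8 (chr19:51458457-51458548, minus strand). All are written 5' to 3' on the gene's strand. Capitals mark the letters CAGGAAG or their reverse complement, an extended form of the GGAA core that ETS family factors bind.
SIGLEC7: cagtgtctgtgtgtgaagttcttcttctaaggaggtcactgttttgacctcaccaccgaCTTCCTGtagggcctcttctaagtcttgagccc
SIGLEC9: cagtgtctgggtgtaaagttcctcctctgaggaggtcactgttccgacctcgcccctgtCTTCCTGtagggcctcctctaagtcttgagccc
SIGLEC12: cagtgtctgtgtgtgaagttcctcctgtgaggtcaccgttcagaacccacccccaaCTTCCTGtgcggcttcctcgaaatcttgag
SIGLEC8: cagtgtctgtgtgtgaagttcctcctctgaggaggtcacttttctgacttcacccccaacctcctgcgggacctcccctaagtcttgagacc

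Of the 92 bases shown for SIGLEC7, 80 were identical in SIGLEC9 and 77 in SIGLEC8. In the alignment with SIGLEC12, which has gaps, 70 of 89 columns were identical. The next pair is SIGLEC5 (chr19:51630402-51630551) and SIGLEC14 (chr19:51646826-51646975), neighbours on the minus strand whose levels differed between the labels by a similar amount.
SIGLEC5: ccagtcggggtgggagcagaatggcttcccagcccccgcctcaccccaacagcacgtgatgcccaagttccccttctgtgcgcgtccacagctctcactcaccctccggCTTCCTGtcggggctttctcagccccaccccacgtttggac
SIGLEC14: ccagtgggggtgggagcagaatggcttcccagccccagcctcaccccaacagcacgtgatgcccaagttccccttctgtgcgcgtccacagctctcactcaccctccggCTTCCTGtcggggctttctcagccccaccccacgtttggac
These 150 bases before the start were identical at 148 positions. The run without a mismatch went on through the last 163 bases of the window used, which ended 50 bases after the start. CD33 (chr19:51224830-51225079, plus strand) and SIGLEC6 (chr19:51531671-51531920, minus strand) are shown with 250 bases each because they had the highest levels among the members and stood in opposite order between the labels.
CD33: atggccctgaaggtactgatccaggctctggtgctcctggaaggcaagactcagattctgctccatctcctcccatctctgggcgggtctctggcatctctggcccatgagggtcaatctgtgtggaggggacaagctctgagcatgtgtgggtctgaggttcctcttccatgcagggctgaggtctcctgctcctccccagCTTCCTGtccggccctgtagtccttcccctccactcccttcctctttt
SIGLEC6: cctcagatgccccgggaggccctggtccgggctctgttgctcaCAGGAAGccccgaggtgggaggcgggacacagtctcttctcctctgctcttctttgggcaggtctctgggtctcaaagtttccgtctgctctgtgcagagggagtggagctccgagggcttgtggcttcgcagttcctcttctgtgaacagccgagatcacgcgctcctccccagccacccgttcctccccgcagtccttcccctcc

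The windows held 250 bases before and 50 after each RefSeq transcript start. Only the 250 bases before the start were searched, for the letters on both strands, and the counts and shares below are for those bases. CAGGAAG was found once in the windows of SIGLEC6, SIGLEC7, SIGLEC9, SIGLEC14 and CD33, once in 1 of the 2 windows of SIGLEC12, and in no window of SIGLEC10 or CD22. It was present in 10.5% of all 35116 windows. CD33 and SIGLEC6 both had it, so the letters did not separate the genes by their order between the labels. The shorter GGAA core was in 92.7% of all windows. TTGCNNAA, a form of the C/EBP motif in which N is any base, was in 9.05% of all windows and in none of the members' windows.

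Across the 8 members, 6 were lower in every CIP-labelled library than in any DMSO-labelled one, CD33 was higher in every one, and SIGLEC9 overlapped. Among all tested genes 75.4% did not overlap between the labels, 39.3% lower and 36.1% higher with CIP. Of the members, 6 passed the filter on low counts, which left out SIGLEC9 and CD22. Those shares cover tested genes only, and among the 6 tested members 5 were lower without overlap and CD33 was higher. Values in CPM are counts scaled to a common library total (the usual CPM unit) after TMM adjustment, a mean ± SD over 3 libraries, and log2 fold changes are CIP minus DMSO ± SE. This SE is the absolute log2 fold change divided by the square root of edgeR's F statistic. It may be too small where few counts were read, so values from DESeq2, another test of counts, are given for SIGLEC7 and SIGLEC12. The method reads a short stretch per transcript, so levels were set against each other between genes without a length correction. In bulk RNA, fewer cells that express a gene and less RNA per cell cannot be told apart.

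**Figure D1:**
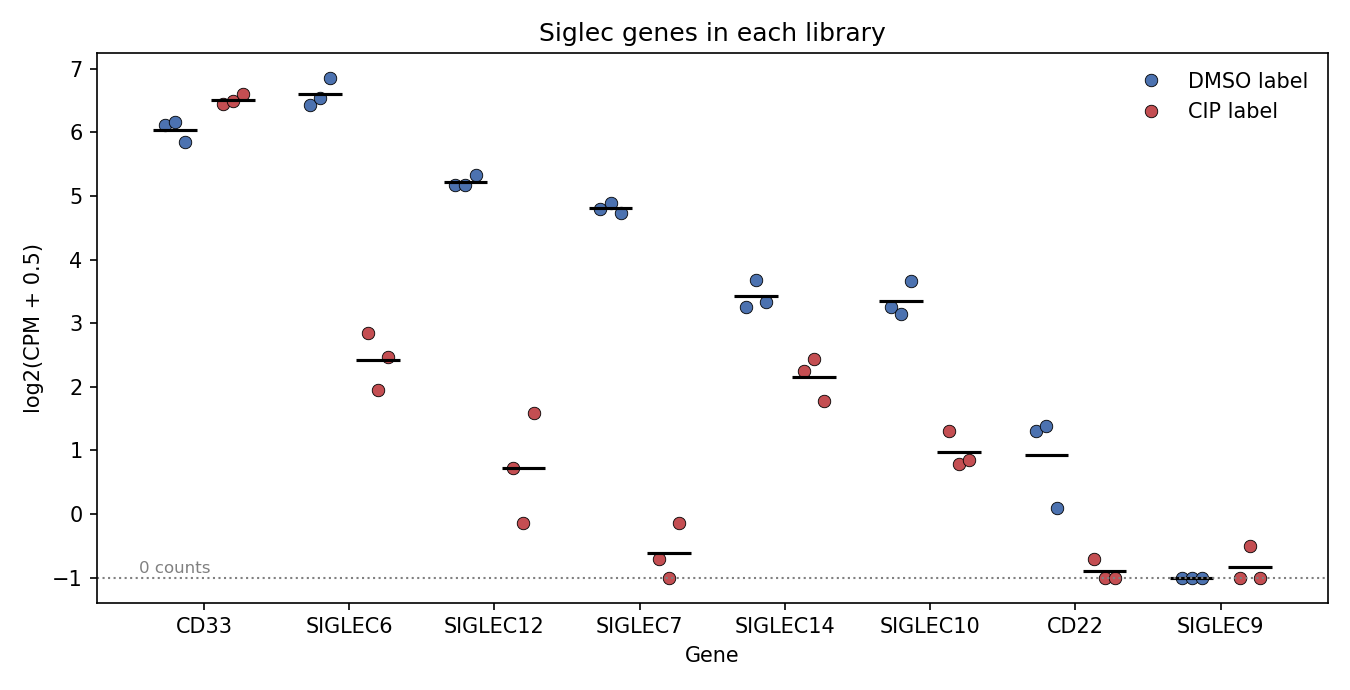
The 8 Siglec genes on a log2 scale of CPM + 0.5, each point a library, each bar the mean of the 3 logged values of a label, and the dotted line the position of 0 counts. CIP points (red) lie below all DMSO points (blue) for SIGLEC6, SIGLEC12, SIGLEC7, SIGLEC14, SIGLEC10 and CD22, above them for CD33, and SIGLEC9 lies at or near 0 counts in both.

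CD33, an ITIM receptor of myeloid cells, was the most read Siglec with CIP and the only member higher in every CIP library than in any DMSO library. It had 748, 873 and 959 counts in CIP replicates 1, 2 and 3 and 698, 741 and 504 in the DMSO replicates. After scaling, the CIP libraries lay at 86.4, 89.3 and 96.6 CPM and the DMSO libraries at 69.0, 70.9 and 56.9 CPM. On this TMM scale all CIP values stood above all DMSO values, by a gap about as wide as the spread within DMSO. The group levels were 90.7 ± 5.26 CPM and 65.6 ± 7.60 CPM, a log2 fold change of 0.47 ± 0.09, or 1.38-fold higher with CIP. On the log2 scale CD33 differed less than any other member tested. With library totals alone as the scale the log2 fold change was 0.24. CD33 spans 51211076 to 51240016 on the plus strand of chromosome 19, and GENCODE v29 lists 7 transcripts of it with up to 7 exons. The bases shown for CD33 lie before a RefSeq transcript start that is inside this span, so they are not upstream of the whole gene.

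The monocyte marker list used for comparison (CD14, FCN1, LYZ, CSF1R, CD68, VCAN) moved the other way to CD33. Of its 6 genes 4 were tested and all 4 fell with CIP, with a summed level of 18.6 to 23.7 CPM against 267 to 287 CPM with DMSO. The background for this and the other marker lists is 38.2% of all tested genes called lower and 34.9% called higher. CD14, the defining monocyte marker, was at 0 in every DMSO library and had 2 counts in 1 CIP library. Of the neutrophil list, with a summed level of 45.4 to 53.6 CPM with CIP and 49.9 to 54.1 CPM with DMSO, 1 gene rose and 1 fell among 3 tested. FCGR3B, which defines mature neutrophils, was at 0 in all libraries.

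SIGLEC6 was the most read Siglec with DMSO. The protein binds the sialyl-Tn antigen and is known from placental trophoblast, mast cells and some B cells. It had 869, 971 and 1022 counts in the DMSO libraries and 58, 33 and 50 in the CIP libraries. Scaled, these were 85.8, 92.9 and 115 CPM with DMSO and 6.70, 3.37 and 5.04 CPM with CIP. Every CIP library was far below every DMSO library, and the CIP values varied more among themselves in relative terms. The levels were 98.0 ± 15.4 CPM with DMSO and 5.04 ± 1.66 CPM with CIP, a log2 fold change of -4.29 ± 0.16, or 19.6-fold lower with CIP. In 7.92% of all tested genes the log2 fold change was -4 or lower. SIGLEC6 spans 51517819 to 51531670 on the minus strand, and no annotated RefSeq gene overlaps it. GENCODE v29 lists 9 transcripts of SIGLEC6 with up to 8 exons, which counts per gene do not separate.

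Trophoblast markers were low in both groups. Of the 5 listed, CGA, TFAP2C and HSD3B1 were at 0 in all libraries, and the summed level was 0.102 to 1.91 CPM with CIP and 3.85 to 6.43 CPM with DMSO, where 1 of 2 tested genes fell. In the eosinophil, basophil and mast cell list 3 genes rose and 2 fell among 5 tested, with a summed level of 6140 to 6480 CPM with CIP and 105 to 119 CPM with DMSO. PRG2, an eosinophil granule protein gene, made up nearly all of the CIP sum, at 6240 ± 192 CPM, and TPSAB1, a mast cell tryptase gene, most of the DMSO sum, at 108 ± 6.48 CPM. EPX, CLC and CPA3 were at 0 in every DMSO library and TPSAB1, which has near-identical copies, in every CIP library. The part of these cell types in the SIGLEC6 values was not tested.

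SIGLEC7, an ITIM receptor known from natural killer cells, had the largest difference of the tested members. It had 276, 303 and 232 counts with DMSO and 1, 0 and 4 with CIP. Scaled, the DMSO libraries had 27.3, 28.99 and 26.2 CPM and the CIP libraries 0.115, 0 and 0.403 CPM. The DMSO libraries stood close together and the CIP libraries lay near the floor of 3 counts. The levels were 27.5 ± 1.42 CPM with DMSO and 0.173 ± 0.207 CPM with CIP, a log2 fold change of -7.19 ± 0.35, or 146-fold lower with CIP. The size of the difference rests on 5 counts, and DESeq2 gave a log2 fold change of -7.31 ± 0.67 SE. Without CIP replicate 2 the edgeR log2 fold change was -6.60. Without CIP replicate 3 a single count remained, and the ratio of summed counts, DMSO over CIP, was 508 with an exact 95% counting interval of 90.9 to 20087. SIGLEC7 spans 51142301 to 51153526 on the plus strand, with 6 transcripts and up to 7 exons in GENCODE v29.

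SIGLEC9, its neighbour in the cluster and an ITIM receptor of neutrophils and monocytes, had 0, 2 and 0 counts with CIP and 0 in all 3 DMSO libraries. Both groups were at or under 3 counts, so no fold is given. A count of 0 over the DMSO group allows a level of up to 0.102 CPM. Promoter windows were given for 2 transcript starts of SIGLEC9. The stretch shown lies before the later start and runs across the earlier one. Both starts are inside the RefSeq span of the gene, which begins at 51119778. This stretch is the closest to that of SIGLEC7 among those printed, with the CAGGAAG letters in both.

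SIGLEC12 belongs to the same subgroup, and its human protein has lost the arginine that other Siglecs use to hold sialic acid. It had 361, 370 and 351 counts with DMSO and 10, 4 and 25 with CIP. Scaled, these were 35.7, 35.4 and 39.6 CPM with DMSO and 1.15, 0.409 and 2.52 CPM with CIP. The DMSO libraries were nearly equal, while the CIP libraries spread widely at a low level. The levels were 36.9 ± 2.35 CPM with DMSO and 1.36 ± 1.07 CPM with CIP, a log2 fold change of -4.74 ± 0.27, or 26.6-fold lower with CIP. Without CIP replicate 3, the highest of them, the log2 fold change was -5.56. With all libraries DESeq2 gave -4.78 ± 0.59 SE. SIGLEC12 spans 51491227 to 51501800 on the minus strand. RefSeq gives it 2 transcript starts, and only the window of the upstream start held the stretch shown.

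SIGLEC17P, a pseudogene next to SIGLEC7 and not a member, had 221, 271 and 194 counts with DMSO and 0, 2 and 0 with CIP. The ratio of its summed counts, DMSO over CIP and scaled by effective library totals, was 331, with an exact 95% interval of 91.1 to 2735 that covers counting error only. The edgeR adjusted p of its difference was 1.89e-18. Without CIP replicate 2, which holds both counts, it was at 0 with CIP and at least 144-fold lower than with DMSO against 3 counts over the group. Across all CIP libraries SIGLEC7 held 5 counts and SIGLEC17P held 2, while CD33, which lies beyond them in the cluster, was read in all 6 libraries.

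The natural killer and T cell marker list was lower with CIP beside SIGLEC7. Of its 8 genes 2 were tested and both fell, and its summed level was 3.27 to 4.04 CPM with CIP and 80.5 to 99.5 CPM with DMSO. NKG7, which also lies in the Siglec cluster, made up most of that sum, at 79.5 ± 12.2 CPM with DMSO. KLRD1 and PRF1, which define cytotoxic cells, were at 0 in all libraries, and CD3D and CD3E were at 0 in every DMSO library.

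SIGLEC10, an ITIM receptor of B cells and some myeloid cells that binds CD24, had 92, 87 and 108 counts with DMSO and 17, 12 and 13 with CIP. Scaled, these were 9.09, 8.32 and 12.2 CPM with DMSO and 1.96, 1.23 and 1.31 CPM with CIP. All CIP libraries were below all DMSO libraries. The levels were 9.87 ± 2.04 CPM with DMSO and 1.5 ± 0.403 CPM with CIP, a log2 fold change of -2.72 ± 0.32, or 6.58-fold lower with CIP. SIGLEC10 spans 51410020 to 51417642 on the minus strand and overlaps SIGLEC10-AS1 (51415724 to 51418197). That antisense gene had 29, 27 and 33 counts with DMSO and 3, 1 and 1 with CIP. The overlap lies at the 5' end of SIGLEC10, whereas the method reads the 3' end of transcripts. The sources used here do not give the strand setting of the counting, so reads from the overlap may be shared. How far this affects either value was not measured.

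CD22, the ITIM receptor that restrains the B cell receptor, lies outside the cluster, from 35329187 to 35347361 on the plus strand of chromosome 19. It had 20, 22 and 5 counts with DMSO and 1, 0 and 0 with CIP, too few to pass the filter. The groups did not overlap, but DMSO replicate 3 was well below the other DMSO libraries. The level with DMSO was 1.55 ± 0.855 CPM, and the ratio of summed counts, DMSO over CIP, was 45.3, with an exact 95% counting interval of 7.74 to 1826. The summed level of the B cell markers was lower with CIP as well, at 1.04 to 1.94 CPM against 19.2 to 21.1 CPM with DMSO. Of 6 listed genes 4 were tested, of which 3 fell, 1 was not called and none rose. CD79B, with too few counts to be tested, went the other way, with 1, 6 and 2 counts with CIP and 0, 1 and 0 with DMSO. MS4A1, which encodes CD20, was at 0 in all libraries.

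SIGLEC14 has no ITIM and signals through DAP12. Among the members tested it had the smallest difference of those lower with CIP, with 92, 129 and 85 counts with DMSO and 37, 48 and 29 with CIP. The groups did not overlap in CPM, with 9.09, 12.3 and 9.59 with DMSO and 4.27, 4.91 and 2.92 with CIP. The levels were 10.3 ± 1.75 CPM and 4.03 ± 1.02 CPM, a log2 fold change of -1.36 ± 0.26, or 2.57-fold lower with CIP. SIGLEC14 spans 51639478 to 51646825 on the minus strand.

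SIGLEC5, which is not a member, encodes the ITIM receptor paired with SIGLEC14 and had 111, 139 and 88 counts with DMSO and 58, 40 and 55 with CIP. It fell with CIP by 1.07 on the log2 scale (SE 0.24, edgeR adjusted p = 0.00018). The number of SIGLEC14 counts per SIGLEC5 count was 0.829, 0.928 and 0.966 with DMSO and 0.638, 1.20 and 0.527 with CIP, so the groups overlapped in this ratio. RefSeq places the genes apart, but the GENCODE v29 model of SIGLEC5 (51611927 to 51645545) runs across SIGLEC14. In the last 400 bases of the SIGLEC14 transcript 1.42% of 50-base stretches also occur in transcripts of other genes, and for SIGLEC5 the share is 53.3%, all in the GENCODE gene AC018755.2. Their counts are uncertain for this reason, by an amount that these shares do not measure. No such stretch was shared in the same window of the other 7 members.

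Of the other Siglec genes, 9 of 20 listed symbols are in the files and 3 passed the filter. All 3 fell with CIP: SIGLEC17P, SIGLEC5 and SIGLEC15, with a median log2 fold change of -3.84 against -0.03 over all tested genes. Of all tested genes 38.2% were called lower. SIGLEC15, a receptor of macrophages and osteoclasts that pairs with DAP12, had 31, 22 and 12 counts with DMSO and 0, 4 and 0 with CIP (log2 fold change -3.84 ± 0.77, edgeR adjusted p = 4.13e-05). All its CIP counts came from replicate 2, and without that library it was at least 13.7-fold lower with CIP, against 3 counts over the group. SIGLEC1, the macrophage receptor sialoadhesin, had 11, 8 and 1 counts with DMSO and 0 with CIP. SIGLEC8 had 4, 11 and 2 counts with DMSO and 2, 2 and 1 with CIP. SIGLECL1 had 4, 1 and 0 counts with DMSO and 0 with CIP, SIGLEC11 had 1 count in 1 CIP library, and MAG and SIGLEC16 had none.

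The make-up of the family's reads differed between the labels. The 17 Siglec genes in the files summed to 288 ± 10.6 CPM with DMSO and 109 ± 5.20 CPM with CIP. CD33 made up 25%, 24.1% and 19.4% of those reads in the DMSO libraries and 80.3%, 85.6% and 84.3% in the CIP libraries. SIGLEC6 made up 31.1%, 31.6% and 39.2% with DMSO and 6.22%, 3.24% and 4.40% with CIP. With DMSO most reads were thus spread over CD33, SIGLEC6, SIGLEC12, SIGLEC7 and SIGLEC17P, and with CIP most belonged to CD33. SIGLEC12 made up 12.9%, 12.03% and 13.5% with DMSO and 1.07%, 0.392% and 2.2% with CIP. SIGLEC7 made up 9.89%, 9.85% and 8.91% with DMSO and 0.107%, 0% and 0.352% with CIP. The shares of SIGLEC14 overlapped between the labels, at 3.26% to 4.20% with DMSO and 2.55% to 4.71% with CIP. The shares of SIGLEC10 did not overlap, at 2.83% to 4.15% with DMSO and 1.14% to 1.82% with CIP. In the smallest of these samples, a CIP library with 932 family counts, the exact Clopper-Pearson 95% interval of the CD33 share was 77.6% to 82.8%.

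**Figure D2:**
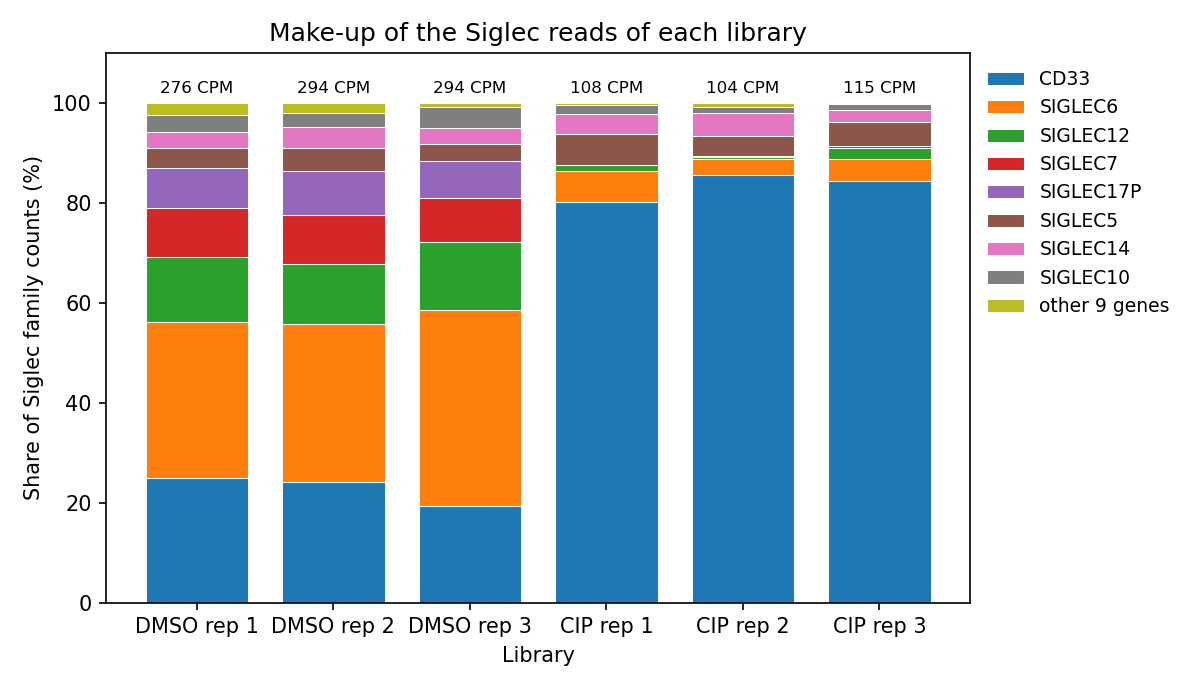
Share of the Siglec family's counts held by each gene (bars, %), by library, with the family's total in CPM above each bar. CD33 (blue) holds 19.4% to 25% of the DMSO bars and 80.3% to 85.6% of the CIP bars.

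By level with DMSO the members ran from SIGLEC6 (98.0 ± 15.4 CPM) and CD33 (65.6 ± 7.60 CPM) through SIGLEC12, SIGLEC7, SIGLEC14 and SIGLEC10 to CD22 and SIGLEC9. SIGLEC14 and SIGLEC10 did not differ beyond their spread, while the neighbours above them in the order did not overlap. With CIP the order was CD33, SIGLEC6, SIGLEC14, SIGLEC10, SIGLEC12, SIGLEC7, SIGLEC9 and CD22. There SIGLEC6 and SIGLEC14 overlapped, as did SIGLEC10 and SIGLEC12, and the last 3 were all near the floor.

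Genes between the members in the cluster also differed, as did most genes: 73.1% of all tested genes were called, 38.2% lower and 34.9% higher with CIP. Of 41 other RefSeq genes between the ends of the cluster 25 are in the files and 8 passed the filter, and 6 of them fell with CIP, 1 rose and 1 was not called, with a median log2 fold change of -3.77. Without the Siglec genes among them, and with SIGLEC10-AS1 left out too, 5 were tested, of which 3 fell and 1 rose. NKG7, a granule protein gene of cytotoxic cells that lies between CD33 and SIGLEC10, had 731, 760 and 829 counts with DMSO and 32, 28 and 30 with CIP (log2 fold change -4.64 ± 0.16, edgeR adjusted p = 1.06e-23). CLDND2, beside it, fell by 3.54 on the log2 scale (SE 0.30, edgeR adjusted p = 1.13e-12). ZNF175, a zinc finger gene between SIGLEC6 and SIGLEC5, rose by 0.61 (SE 0.16, edgeR adjusted p = 0.000815). ETFB, which encodes a mitochondrial electron carrier and is named after its values were seen as the gene not called, had 99.1 ± 9.45 CPM with DMSO and 106 ± 11.4 CPM with CIP (edgeR adjusted p = 0.324), and its log2 fold change turned from 0.09 to -0.14 with library totals alone. Lower, higher and similar genes thus lay interleaved along the 527 kb.

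**Figure D3:**
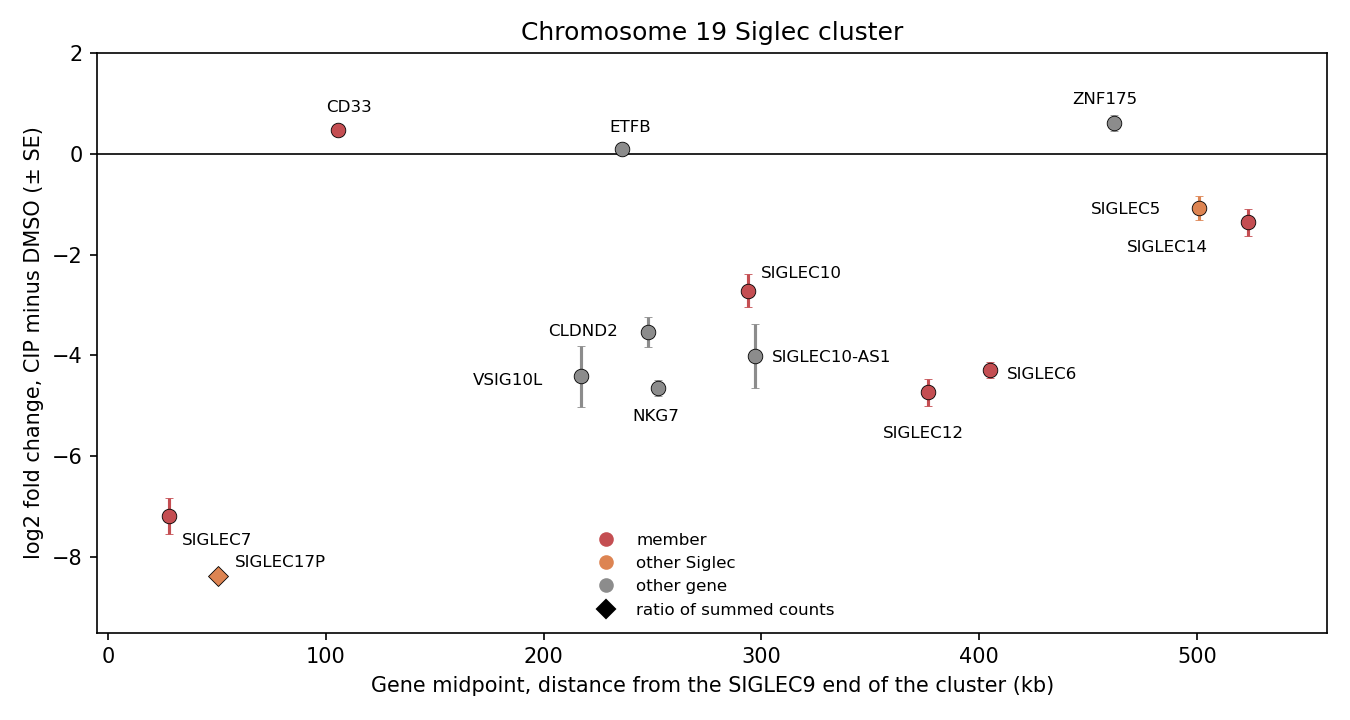
Log2 fold change (CIP minus DMSO, bars ± SE) of the tested genes of the chromosome 19 cluster against the distance of the gene's midpoint from the SIGLEC9 end, in kb. SIGLEC17P is drawn as the ratio of summed counts, and CD33 and ZNF175 lie above 0, ETFB lies next to it (0.09, and -0.14 with library totals alone), and the other genes lie below it.

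Around CD22, 2 of the 10 nearest genes with a count, 5 on each side, were tested and both fell with CIP. FXYD5, a regulator of the sodium pump, had 117 ± 9.62 CPM with DMSO and 47.1 ± 9.61 CPM with CIP (log2 fold change -1.31 ± 0.11, edgeR adjusted p = 4.89e-11). The other, USF2, is named after its values were seen and fell by 0.18 (SE 0.08, edgeR adjusted p = 0.0348). USF2 was not called with the replicate number as a block (adjusted p = 0.0617), with no filter (0.102), without any 1 of the CIP libraries (0.0598 to 0.0937) or without DMSO replicate 3 (0.0780).

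Genes with the pattern most like each tested member were taken by the Euclidean distance of log2(CPM + 0.5) over the 6 libraries. The genes nearest to SIGLEC6 were DNASE2 (0.839), TGM5 (0.845) and CRIP1 (0.877). IGF2BP2 (0.472), PSMD5 (0.550) and LOC107986350 (0.568) were nearest to SIGLEC7. SIGLEC12 lay nearest to GAMT (0.622), PARP3 (0.822) and NIBAN2 (0.834), and SIGLEC10 to LOC101930071 (0.483), CDC42BPB (0.568) and S1PR3 (0.649). The nearest to SIGLEC14 were DNMT3B (0.417), FOXO6 (0.425) and LOC124902114 (0.525), and those nearest to CD33 were CASP8AP2 (0.175), COQ8A (0.192) and ARID4A (0.2). No gene nearest to a member was another Siglec, since members were left out of the search, and SIGLEC5 and SIGLEC17P were not among the 3 nearest to any of them.

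Sialic acid is the ligand of these receptors, and the genes that make, attach and remove it are given beside the background of 34.9% of all tested genes called higher and 38.2% called lower. Of 6 tested genes of sialic acid synthesis and transport 2 rose, 2 fell and 2 were not called, with a median log2 fold change of -0.23. SLC35A1, which carries the activated sugar into the Golgi, rose by 0.76 (SE 0.15, edgeR adjusted p = 3.43e-05), and NANS, the synthase, rose by 0.57 (SE 0.09). NANP, the phosphatase of the next step, fell by 0.49 (SE 0.17).

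Of 20 sialyltransferases, which attach the sugar, 11 were tested, 8 fell with CIP and 3 rose, with a median of -1.43. With library totals alone 8 fell and 1 rose. ST6GALNAC3, which adds sialic acid to the N-acetylgalactosamine of O-glycans and glycolipids, had 184, 239 and 179 counts with DMSO and none with CIP, at least 193-fold lower against 3 counts over the group (edgeR adjusted p = 1.07e-17). ST3GAL1 and ST6GALNAC4, which act on the short O-glycans of mucin type, fell by 1.92 (SE 0.12) and by 1.78 (SE 0.22). ST3GAL4, which caps N-acetyllactosamine chains, rose by 1.83 (SE 0.16, edgeR adjusted p = 3.96e-12), with 286, 281 and 317 counts with CIP and 83, 81 and 93 with DMSO. ST3GAL1 and ST3GAL4, which form the same kind of linkage on different chains, thus changed in opposite directions.

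Among genes that remove, edit or recycle sialic acid, 6 were tested, 4 fell, 1 rose and 1 was not called, with a median of -0.93. NEU1, the lysosomal sialidase, fell by 1.51 (SE 0.12, edgeR adjusted p = 6.3e-13), and CTSA, the protein that protects it, fell by 0.51 (SE 0.09). SLC17A5, which exports free sialic acid from the lysosome, fell by 1.67 (SE 0.17). CASD1, which adds acetyl groups to sialic acid, rose by 1.32 (SE 0.29, edgeR adjusted p = 0.000151).

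Of 9 tested glycoproteins known to carry sialic acid, 4 fell, 2 rose and 3 were not called, with a median of -0.66. With library totals alone 5 fell and 1 rose. PODXL, a heavily sialylated mucin, had 273, 289 and 263 counts with DMSO and 10, 4 and 4 with CIP (log2 fold change -5.44 ± 0.28, edgeR adjusted p = 1.5e-18), and -6.06 without CIP replicate 1. MUC1 fell by 4.0 (SE 0.51), and its log2 fold change was -3.39 without CIP replicate 3, which had no count. PTPRC, which encodes the CD45 phosphatase that CD22 binds, fell by 1.76 (SE 0.08). SPN, which encodes the leukocyte mucin CD43 and was by level the highest of the genes named in this list, had 1122 ± 49.8 CPM with CIP and 846 ± 28.7 CPM with DMSO and rose by 0.41 (SE 0.06).

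**Figure D4:**
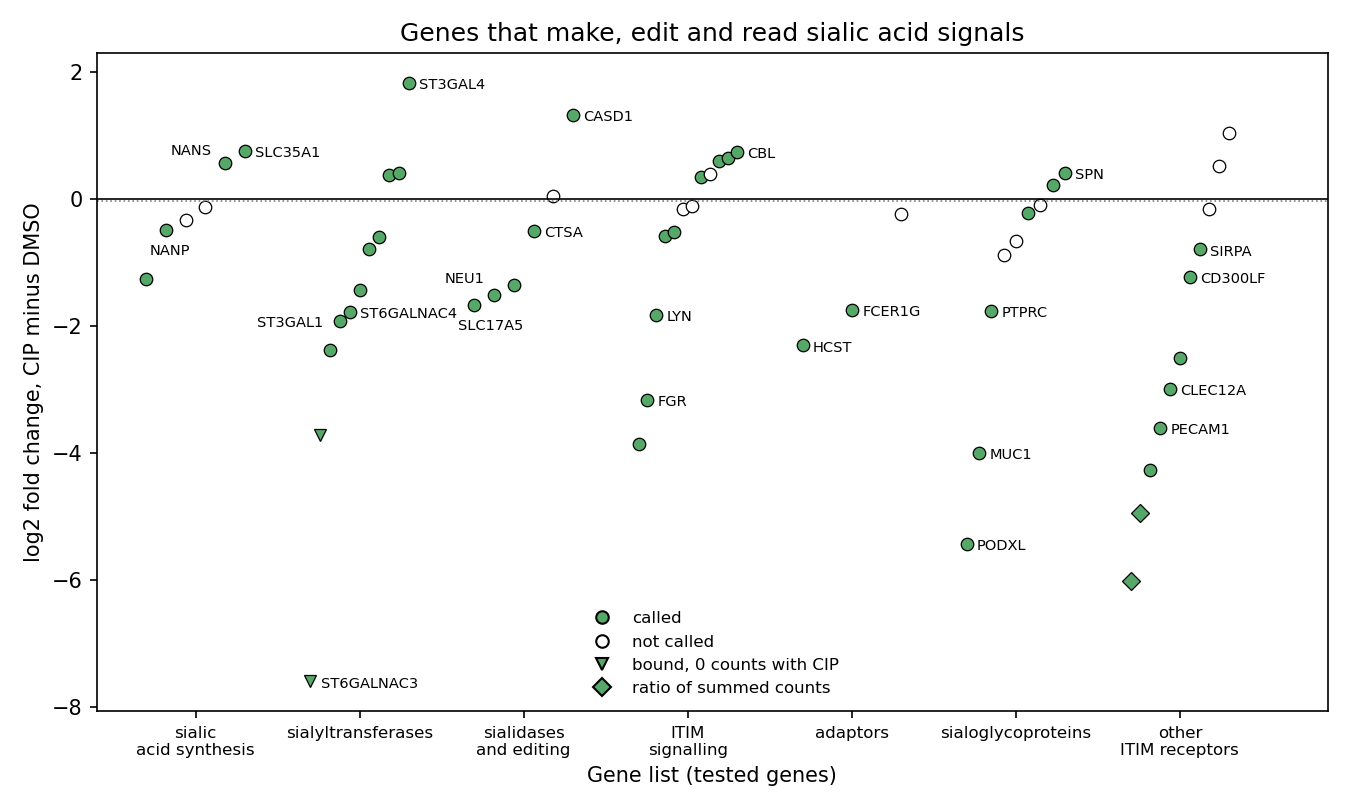
Log2 fold change (CIP minus DMSO) of the tested genes of 7 lists, each point a gene, filled where called at an edgeR adjusted p under 0.05. Triangles are bounds against 3 counts, diamonds are ratios of summed counts, the dotted line is the median of all tested genes (-0.03), and all 8 called genes among the other ITIM receptors lie below 0.

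Of 12 tested genes for kinases that phosphorylate ITIMs and proteins that bind them, 5 fell, 4 rose and 3 were not called, with a median of -0.13. This share of calls is near the 73.1% over all tested genes. With library totals alone 7 fell and 3 rose. FGR, a SRC family kinase of myeloid cells, had 162, 127 and 133 counts with DMSO and 15, 15 and 15 with CIP (log2 fold change -3.17 ± 0.28, edgeR adjusted p = 2.57e-12). LYN, another kinase of that family, fell by 1.83 (SE 0.11). CBL, a ubiquitin ligase that acts on such receptors, rose by 0.75 (SE 0.09).

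Of the 3 adaptors with activating motifs, 2 fell. HCST, which encodes DAP10, had 1501, 1596 and 1550 counts with DMSO and 256, 343 and 314 with CIP (log2 fold change -2.30 ± 0.09, edgeR adjusted p = 7.37e-22), and FCER1G, the Fc receptor gamma chain, fell by 1.74 (SE 0.12). TYROBP, the partner of SIGLEC14 and SIGLEC15, is named after its values were seen as the gene not called. Its call changed with the setting: the edgeR adjusted p was 0.00116 with library totals alone and 0.0197 without CIP replicate 2. It had 35.6 ± 1.65 CPM with DMSO and 30.2 ± 4.87 CPM with CIP (log2 fold change -0.24 ± 0.13, edgeR adjusted p = 0.0819).

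Receptors with ITIMs outside the Siglec family were tested for comparison with the members. Of 18 listed, 11 were tested, 8 fell, 3 were not called and none was called higher, with a median of -2.50 against -0.03 over all tested genes. The 3 not called pointed both ways, with log2 fold changes of 1.04 ± 0.54, 0.51 ± 0.57 and -0.16 ± 0.09. The share called was near the 73.1% over all tested genes, of which 38.2% were called lower and 34.9% higher. CLEC12A, a C-type lectin of myeloid leukaemia cells, had 2247, 2393 and 1929 counts with DMSO and 213, 266 and 319 with CIP (log2 fold change -2.99 ± 0.09, edgeR adjusted p = 1.48e-25). PECAM1, an adhesion receptor, fell by 3.60 (SE 0.20). CD300LF and SIRPA, the receptor for CD47, fell by 1.23 (SE 0.15) and by 0.79 (SE 0.08).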

How the data were processed

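Gene expression was measured in 6 libraries, 3 labelled CIP and 3 DMSO, grouped by their titles. The deposited files hold raw read counts per gene symbol, which the authors did not normalize as far as the whole numbers and unequal totals show. GRCh38, HTSeq, STAR, fastp and bcl2fastq 2.20.0.422 are named in the submitters' processing notes. The sources used here do not give the annotation, the strand setting or the use of molecular identifiers, and all intervals and floors are for counting error alone. Libraries came from a QuantSeq kit, per the labels' protocols.

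Genes were tested with edgeR 4.0.16 in R 4.3.3 (filterByExpr, TMM, robust quasi-likelihood test, group alone, 2-sided, Benjamini-Hochberg over 12844 genes, called under 0.05). Against a group at 0 counts, a bound is given instead of a fold, set at 3 counts over that group (0.106 CPM for CIP, 0.102 for DMSO). With 1 to 3 counts it is the ratio of summed counts with its exact 95% interval. The steps were tested on simulated data. No library was a duplicate: replicates of a group differed beyond sampling noise, with a chi-square of 3.82 to 7.66 per gene.

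The members and the 15 gene lists were chosen with earlier results of these data known. Named genes are the members, every other Siglec with a count, of each list up to 4 called genes with the largest change and at least 5 CPM, up to 6 such neighbours, MPO and MYC, and the 3 genes nearest to each tested member. Some genes the rule takes are summarised by their list only or are not reported here. All 8 members matched RefSeq (GRCh38.p14) by symbol, which gave positions and promoter windows. Strands and transcript ends came from GENCODE v29 on the same build. Alternatives were RLE scaling, library totals alone, no filter, 1 CPM in 3 libraries, DESeq2 1.42.0, leaving out each library in turn, and a block for the replicate number.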

Additional observations from a re-analysis of the deposited data

How the results depend on the processing

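Across the alternatives, all 120 counts of called genes stayed within 1.5 times their values, 615 settings of single named genes kept direction and call, and 68 settings of the members moved by less than 1 SD between replicates. The exceptions among named genes were 2 in which TYROBP became called, 6 in which USF2 lost its call, and ETFB with library totals alone, which turned to -0.14. Those of the members were SIGLEC7 without CIP replicate 2 or 3 (leave-one-out range of the fitted log2 fold change -8.67 to -6.60, the former resting on 1 count with CIP), SIGLEC12 without CIP replicate 3 (range -5.56 to -4.28) and CD33 with library totals alone (0.24 against 0.47, range over left-out libraries 0.36 to 0.51). No member changed direction. Ranges over left-out libraries were -4.52 to -4.06 for SIGLEC6, -2.93 to -2.55 for SIGLEC10 and -1.52 to -1.16 for SIGLEC14. All genes called numbered 9394, 9061 with the replicate number as a block, 9100 with DESeq2 and 10349 with no filter. Same-numbered libraries did not deviate together (correlations -0.020, -0.043 and -0.024). No pairing by number was thus visible, but with 3 libraries per group this cannot exclude that samples were handled in pairs. With the block the 9394 calls became 9061 and no list's number of calls changed by over 1.5 times. Depth limits SIGLEC7, SIGLEC9, SIGLEC12 and CD22 with CIP, where few or no counts were read.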
